A study of Mus musculus with 8 samples.

Results

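Genes of the Wnt pathway were followed in cultured mouse sacral neural crest cells that carried the Dom allele of Sox10 or did not. The 38 genes were ligands, receptors, inhibitors, cytoplasmic transducers, nuclear factors and polarity genes, listed with earlier results of these data known. Member counts set beside shares of all genes therefore describe the list and do not test it. Of the 38 genes, 37 were among the 6855 genes tested, each through 1 probe set with a single gene symbol. Tcf7, which encodes a DNA-binding partner of beta-catenin, had no probe set under that name and was not analysed here, and Wisp1 was measured under its present symbol Ccn4. Cells came from 4 cultures of Sox10 Dom/Dom embryos, homozygous for the mutant allele, and from 4 cultures of wild-type embryos, all at embryonic day 9.5, and each culture was hybridised to 1 Affymetrix Mouse Gene 1.0 ST array. In both genotypes the neural tube caudal to somite 24 was explanted into medium with 10% serum and taken away after 24 hours, so that RNA was made from the cells that had crept out onto the dish. Strain, sex and the number of embryos per culture were not given in the sources used here, so the spread between arrays of 1 genotype may be partly technical.

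Wnt proteins are lipid-modified signals that bind Frizzled receptors together with coreceptors. In the canonical branch Dishevelled then stops a complex of Axin, Gsk3b and casein kinase 1 from marking beta-catenin for destruction, and beta-catenin goes to the nucleus to work with TCF and LEF factors; in the polarity branch Vangl and Celsr proteins and formins shape the cytoskeleton instead. Wnt signals from the dorsal neural tube are known to help induce neural crest, and many feedback inhibitors of the pathway are themselves Wnt targets.

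Levels are RMA values on the log2 scale, and a difference is Dom/Dom minus wild type on that scale, from limma with genotype as the only term and Benjamini-Hochberg adjustment over all genes tested; a gene passed at an adjusted p under 0.05. Sox10 itself stood at 9.98, 10.94, 10.52 and 10.55 in Dom/Dom replicates 1 to 4 and at 11.67, 11.46, 11.89 and 11.75 in wild type (difference -1.20, SE 0.18, limma adjusted p = 0.0168). Its call was lost without Dom/Dom replicate 3, Dom/Dom replicate 4, wild-type replicate 3 or wild-type replicate 4 (adjusted p between 0.0607 and 0.0762) and over all probe sets (0.147). A mutant message can still be made from the Dom allele, so this level does not test the genotype labels. Over all genes 33 passed, 0.481% of those tested. Array medians lay between 8.60 and 8.78. The probe sets of 213 olfactory receptor genes, which serve here as a reference for genes thought to be silent, had a 95th percentile of 8.22. A mean above it was found for 35 of the 37 Wnt genes, and for 4580 of all 6855 genes. Rspo2 (mean 7.82) and Wif1 (8.13) were not above it. The next lowest means were those of Wnt6 (8.31), Wnt10b (8.43), Rnf43 (8.44), Tle2 (8.44), Fzd5 (8.49) and Notum (8.54). RMA compresses dim differences, so small differences and narrow intervals of these genes do not show that they were unchanged.

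The Dishevelled-binding inhibitor gene Nkd2 fell and the secreted antagonist gene Sostdc1 rose, and they were the 2 members of 37 that passed. Over all genes 0.408% were called lower and 0.0729% higher in Dom/Dom. With the replicate number as a block, under which same-numbered arrays are compared with each other, 4 of 37 passed, as Dact1 joined those lower in Dom/Dom and Ccn4 those higher; over all genes 1.5% passed under that fit. The groups did not overlap for 4 of 37 members, Nkd2, Dact1, Sostdc1 and Notum, against 3.78% of all genes. The other 32 members, with Nkd2, Sostdc1, Notum, Dact1 and Ccn4 set aside, had differences between -0.21 and 0.23. The median difference was -0.02 over the 37 members and 0.00 over all genes.

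**Figure D1:**
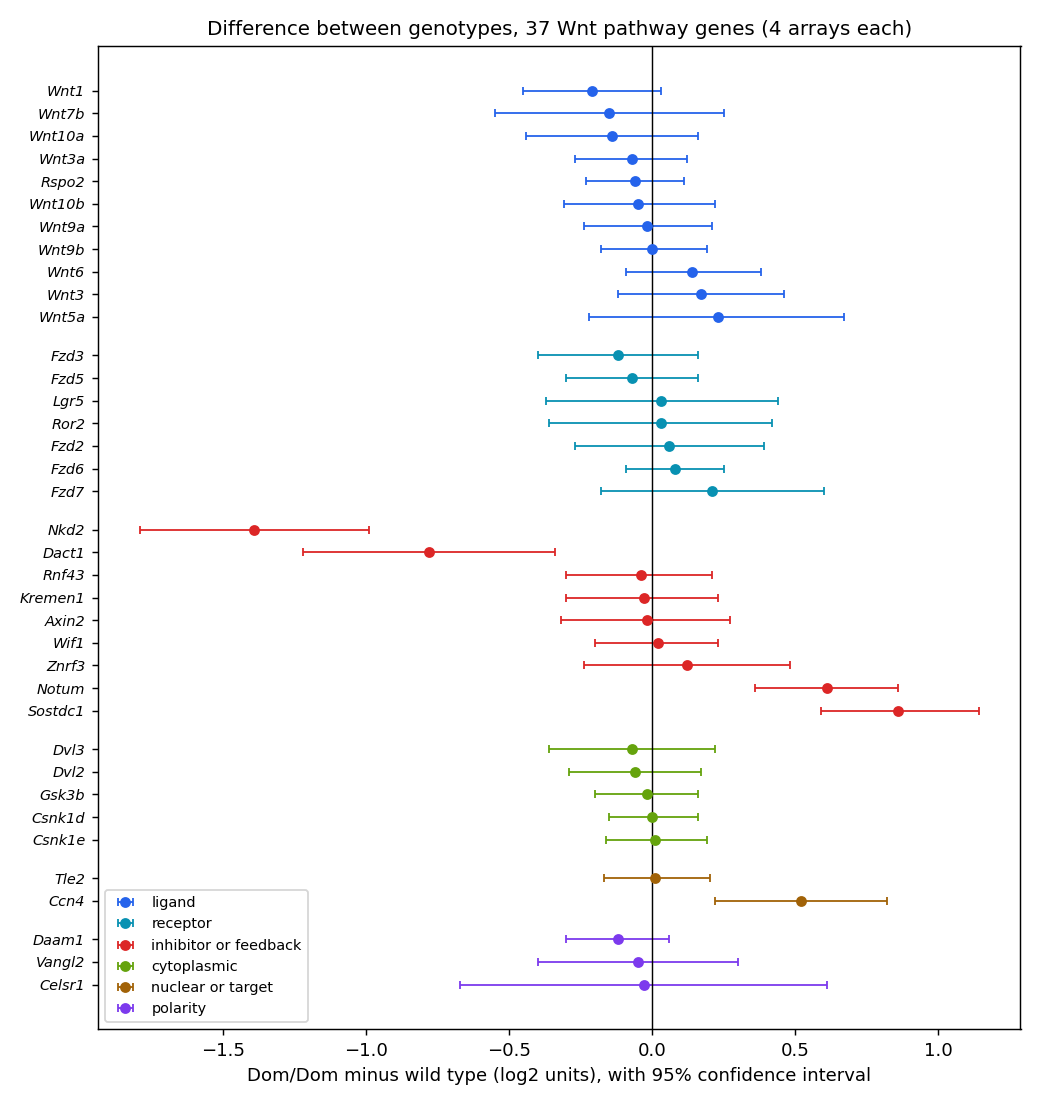
Difference between genotypes (Dom/Dom minus wild type, log2 units, x axis) of the 37 members, grouped and coloured by role; points are estimates and bars 95% confidence intervals from limma over 4 arrays of each genotype. Nkd2 at -1.39 and Sostdc1 at 0.86 lie at the ends, and the 11 ligand, 7 receptor and 5 cytoplasmic genes all lie within 0.25 of 0.

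Nkd2 encodes a protein that binds Dishevelled and dampens Wnt signals. Its level (probe set 10410547, chromosome 13) was 8.98, 9.23, 8.74 and 8.79 in Dom/Dom replicates 1 to 4 and 10.33, 9.78, 10.61 and 10.58 in wild-type replicates 1 to 4. Every Dom/Dom array lay below every wild-type array, and wild-type replicate 2 was the lowest of its genotype. The means were 8.94 ± 0.22 and 10.33 ± 0.38 (SD, n = 4), a 2.62-fold fall with a log2 difference of -1.39 (95% interval -1.79 to -0.99, limma adjusted p = 0.00878). Nkd2 was lower in 4 of 4 same-numbered pairs, by -1.35, -0.55, -1.88 and -1.79. It passed in 8 of 8 fits that left out 1 array, but not when the adjustment ran over all 16381 probe sets (adjusted p = 0.0897).

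Dact1, whose protein also binds Dishevelled, lay on the same side as Nkd2. It stood at 10.09, 10.21, 10.36 and 10.51 in Dom/Dom replicates 1 to 4 and at 10.80, 10.56, 11.41 and 11.50 in wild-type replicates 1 to 4. The groups did not overlap, but wild-type replicates 1 and 2 came close to the Dom/Dom arrays while replicates 3 and 4 stood well above them. The difference was -0.78 (95% interval -1.22 to -0.34, limma adjusted p = 0.177; 0.0339 with the replicate block), with pair differences of -0.72, -0.35, -1.05 and -1.0. Dact1 passed without wild-type replicate 2 (adjusted p = 0.0462) and in none of the other 7 fits that left out 1 array, where the highest adjusted p was 0.554. Its neighbour among protein-coding genes, the formin gene Daam1, differed by -0.12 (95% interval -0.30 to 0.06).

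The DNA just upstream of these 2 genes, the members with the lowest differences, is printed to show how unlike their promoters are in sequence. Each run holds the 250 bases before the gene's start in RefSeq (GRCm38.p6), read 5′ to 3′ along the gene, with CG dinucleotides in capitals. The Nkd2 window is chr13:73847632-73847881 on the minus strand and the Dact1 window chr12:71309634-71309883 on the plus strand.
Nkd2: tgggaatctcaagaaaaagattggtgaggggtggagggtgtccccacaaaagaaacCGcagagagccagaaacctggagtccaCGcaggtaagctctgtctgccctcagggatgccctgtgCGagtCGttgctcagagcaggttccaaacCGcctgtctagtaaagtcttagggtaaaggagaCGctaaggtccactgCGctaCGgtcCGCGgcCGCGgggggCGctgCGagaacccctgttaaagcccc
Dact1: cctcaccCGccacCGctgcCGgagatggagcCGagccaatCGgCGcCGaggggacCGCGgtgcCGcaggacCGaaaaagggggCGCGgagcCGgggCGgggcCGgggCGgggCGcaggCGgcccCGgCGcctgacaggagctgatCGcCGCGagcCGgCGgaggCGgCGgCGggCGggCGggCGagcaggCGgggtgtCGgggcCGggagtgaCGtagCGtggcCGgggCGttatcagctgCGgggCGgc
The Nkd2 window held 14 CG dinucleotides at 58.4% G and C, and the Dact1 window 41 at 80.4%, where the median of 32851 such windows was 6 at 52.4%. On either strand, neither window held the letters ATCAAAG, bound by TCF and LEF factors, or ACAAAG or ACAATG, bound by SOX factors; ATCAAAG and ACAAAG share their last letters but cannot match at the same place. Of all windows 3.21% held the first, 16.5% the second and 10.7% the third. Among the 22 members with a window in the table, 0 held ATCAAAG, 3 held ACAAAG (Fzd7, Ror2 and Csnk1e) and 2 held ACAATG (Wnt1 and Vangl2).

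Sostdc1 encodes a secreted antagonist of BMP and Wnt signals. Its level (probe set 10395389, chromosome 12) was 10.11, 10.35, 10.45 and 10.61 in Dom/Dom replicates 1 to 4 and 9.75, 9.55, 9.35 and 9.40 in wild-type replicates 1 to 4. All 4 Dom/Dom arrays were above all 4 wild-type arrays, and the gap was narrowest in replicate 1. The means were 10.38 ± 0.21 and 9.51 ± 0.18 (SD, n = 4), a 1.82-fold rise with a difference of 0.86 (95% interval 0.59 to 1.14, limma adjusted p = 0.0143), and the pairs differed by 0.36, 0.79, 1.10 and 1.21. The call was lost without Dom/Dom replicate 3, Dom/Dom replicate 4, wild-type replicate 3 or wild-type replicate 4 (adjusted p = 0.0664, 0.0573, 0.0689 and 0.0594) and over all probe sets (0.127).

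Notum encodes a secreted enzyme that strips the lipid from Wnt proteins and is a known Wnt target. Dom/Dom replicates 1 to 4 stood at 8.66, 8.73, 8.97 and 9.00 and wild-type replicates 1 to 4 at 8.49, 8.14, 8.20 and 8.09. The groups did not overlap, with wild-type replicate 1 nearest to the Dom/Dom arrays. The difference of 0.61 (95% interval 0.36 to 0.86) did not pass (limma adjusted p = 0.0512; 0.0656 with the replicate block), and the pair differences were 0.17, 0.59, 0.77 and 0.92. Wild-type levels of Notum lay near the olfactory receptor reference, where RMA compresses differences. It passed without Dom/Dom replicate 1 (adjusted p = 0.0372) or wild-type replicate 1 (0.0273).

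Ccn4, a secreted matricellular protein gene known as a Wnt target, stood at 9.94, 9.66, 9.96 and 10.03 in Dom/Dom replicates 1 to 4 and at 9.73, 9.08, 9.33 and 9.35 in wild-type replicates 1 to 4. Wild-type replicate 1 lay within the Dom/Dom range, so the groups overlapped, although Dom/Dom was the higher array in 4 of 4 pairs (0.21, 0.57, 0.63 and 0.68). The difference was 0.52 (95% interval 0.22 to 0.82, limma adjusted p = 0.188; 0.0410 with the replicate block and 0.0464 without wild-type replicate 1). For all of Nkd2, Sostdc1, Notum, Dact1 and Ccn4 the difference was larger in pairs 3 and 4 than in pairs 1 and 2. Sox10 differed by -1.69, -0.52, -1.37 and -1.20 in pairs 1 to 4.

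**Figure D2:**
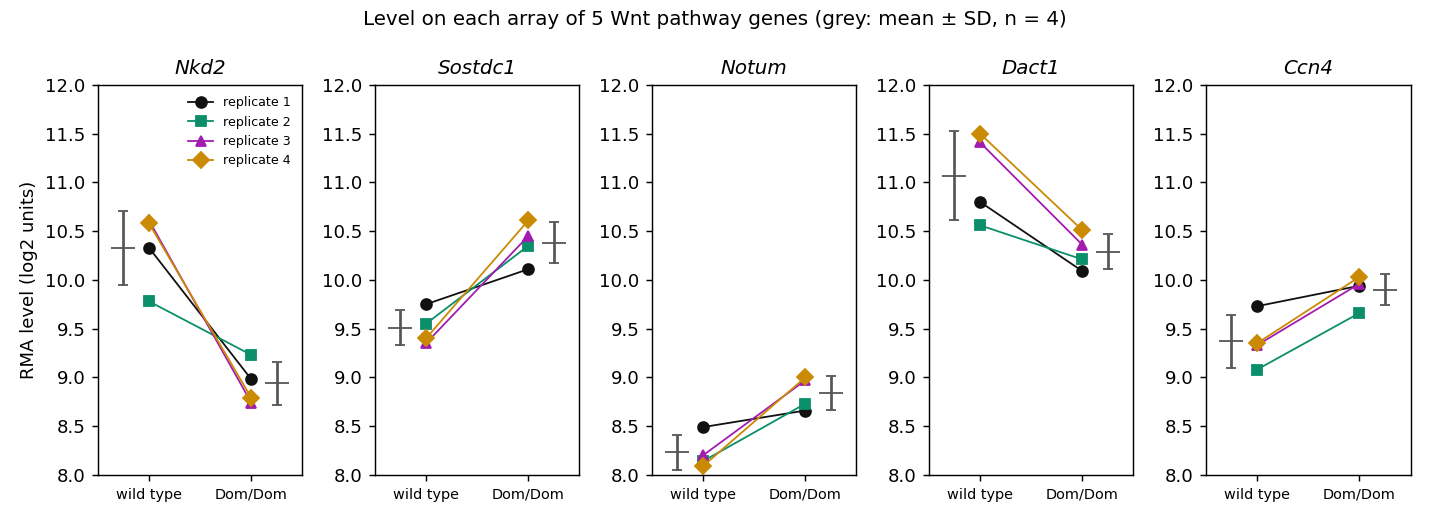
RMA level (log2 units, y axis, from 8 to 12) of Nkd2, Sostdc1, Notum, Dact1 and Ccn4 on each array; lines join arrays with the same replicate number, and grey marks give the mean ± SD of 4 arrays. Lines fall for Nkd2 and Dact1 and climb for the other 3 genes in all 4 pairs, and they are steepest for replicates 3 and 4.

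The remaining 5 inhibitor or feedback genes showed no difference past the threshold. Axin2, the scaffold gene widely read as a report of canonical Wnt activity, stood at 11.04, 11.16, 10.86 and 10.77 in Dom/Dom replicates 1 to 4 and at 11.16, 11.23, 10.74 and 10.79 in wild-type replicates 1 to 4. Its ranges overlapped almost entirely, and the difference was -0.02 (95% interval -0.32 to 0.27). The genes of the paired ubiquitin ligases that remove Frizzled from the cell surface differed by 0.12 (Znrf3, -0.24 to 0.48) and -0.04 (Rnf43, -0.30 to 0.21). Kremen1, a receptor for Dickkopf inhibitors, differed by -0.03 (-0.30 to 0.23), and Wif1, which binds Wnt ligands outside the cell, by 0.02 (-0.20 to 0.23). Of the 9 inhibitor or feedback genes, then, 1 rose, 1 fell and 7 did not pass.

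None of the 11 ligand genes passed, and 0 passed with the replicate block (lowest adjusted p = 0.274). Wnt1, the dorsal neural tube ligand, stood at 10.63, 11.04, 10.95 and 10.88 in Dom/Dom replicates 1 to 4 and at 11.10, 11.27, 11.02 and 10.94 in wild-type replicates 1 to 4. The groups overlapped, though the Dom/Dom array was the lower in 4 of 4 pairs, with a difference of -0.21 (95% interval -0.45 to 0.03, limma adjusted p = 0.989). Wnt3a, its partner in the dorsal neural tube and tail bud, differed by -0.07 (-0.27 to 0.12). Wnt5a, a ligand that acts mostly without beta-catenin, had the widest wild-type range of the ligands, from 10.12 in replicate 3 to 11.19 in replicate 1, against 10.53 to 10.96 in Dom/Dom. Its difference was 0.23 (-0.22 to 0.67), made up of -0.32 in pair 1 and 0.40, 0.42 and 0.40 in pairs 2 to 4. Wnt7b ran the other way, at 0.49 in pair 1 and -0.28, -0.49 and -0.30 in the others (difference -0.15, -0.55 to 0.25). The R-spondin gene Rspo2, whose product strengthens Wnt signals through Lgr receptors, averaged 7.79 ± 0.09 on Dom/Dom arrays and 7.85 ± 0.05 on wild-type arrays (SD, n = 4).

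In the RefSeq gene order, 8 of the 10 Wnt genes lie next to another Wnt gene as neighbours among protein-coding genes, the remnant of an old duplication. Wnt6 and Wnt10a on chromosome 1 differed by 0.14 and -0.14, Wnt3a and Wnt9a on chromosome 11 by -0.07 and -0.02, Wnt9b and Wnt3 on chromosome 11 by 0.00 and 0.17, and Wnt10b and Wnt1 on chromosome 15 by -0.05 and -0.21. In each of the 4 neighbour pairs both 95% intervals included 0; with the replicate block those of Wnt6 (0.02 to 0.26) and Wnt1 (-0.40 to -0.02) did not, though neither gene passed (adjusted p = 0.274 and 0.308). Wnt6, a surface ectoderm ligand, was higher on the Dom/Dom array in 4 of 4 pairs (0.21, 0.18, 0.05 and 0.14), and its level, 8.39 ± 0.15 and 8.24 ± 0.17 (SD, n = 4), lay near the olfactory receptor reference. Counting all members, 10 of 37 differed in 1 direction in all 4 pairs, 5 up and 5 down (27.0%), not far from the 21.1% of all genes.

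Receptor genes did not pass in either fit. The Frizzled genes Fzd2, Fzd3, Fzd5 and Fzd6 differed by 0.06, -0.12, -0.07 and 0.08. Fzd7, a receptor widely used in embryonic tissue, stood at 12.65, 12.67, 12.12 and 12.23 in Dom/Dom replicates 1 to 4 and at 12.39, 12.57, 11.91 and 11.95 in wild-type replicates 1 to 4. The groups overlapped because replicates 1 and 2 were high in both genotypes, but Dom/Dom was the higher array in 4 of 4 pairs (0.26, 0.11, 0.21 and 0.28; difference 0.21, limma adjusted p = 1.00 and 0.124 with the replicate block). Ror2, the receptor tyrosine kinase for Wnt5a, differed by 0.03 (95% interval -0.36 to 0.42), and Lgr5, an R-spondin receptor, by 0.03 (-0.37 to 0.44).

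Genes of the shared cytoplasmic machinery had a median difference of -0.02, and 0 of 5 passed. Gsk3b, Dvl2, Dvl3, Csnk1d and Csnk1e, which encode the beta-catenin kinase, Dishevelled adaptors and casein kinases, differed by -0.02, -0.06, -0.07, 0.00 and 0.01, and their intervals lay between -0.36 and 0.22. The corepressor gene Tle2 differed by 0.01 (-0.17 to 0.20). Of the polarity genes, Vangl2 differed by -0.05 (-0.40 to 0.30) and Celsr1, a seven-pass cadherin gene, by -0.03 (-0.67 to 0.61), the widest interval of the 37.

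Arrays also differed by replicate number within both genotypes. Celsr1 stood at 11.81 and 12.05 in Dom/Dom replicates 1 and 2 and at 12.01 and 11.94 in wild-type replicates 1 and 2, but at 11.01 and 11.07 in Dom/Dom replicates 3 and 4 and at 11.10 and 11.02 in wild-type replicates 3 and 4. All 4 arrays of replicates 1 and 2 were thus above all 4 of replicates 3 and 4, by a mean of 0.90. The same held without overlap for 13 of 37 members, where 14.0% of all genes lay that way: Fzd2, Fzd5, Fzd7, Ror2, Lgr5, Axin2, Kremen1, Znrf3, Dvl3, Csnk1d, Csnk1e, Celsr1 and Vangl2. By role these were 5 of 7 receptor, 3 of 9 inhibitor or feedback, 3 of 5 cytoplasmic and 2 of 3 polarity genes, and 0 of 11 ligand genes. In 0 members were replicates 1 and 2 below 3 and 4 without overlap, where 552 of all 6855 genes lay that way. Of 47 further Wnt pathway genes, 9 were higher and 8 lower in replicates 1 and 2 than in 3 and 4, without overlap. The mean difference between these sets exceeded the genotype difference in 26 of 37 members (70.3%), close to the 68.2% of all genes for which it did. No label says what the sets share. Array medians of the sets overlapped (8.64 to 8.74 in replicates 1 and 2, 8.60 to 8.78 in 3 and 4). With the sets as a block in place of the replicate number, 4 of 37 members passed, Nkd2, Dact1, Sostdc1 and Notum, against 1.69% of all genes.

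**Figure D3:**
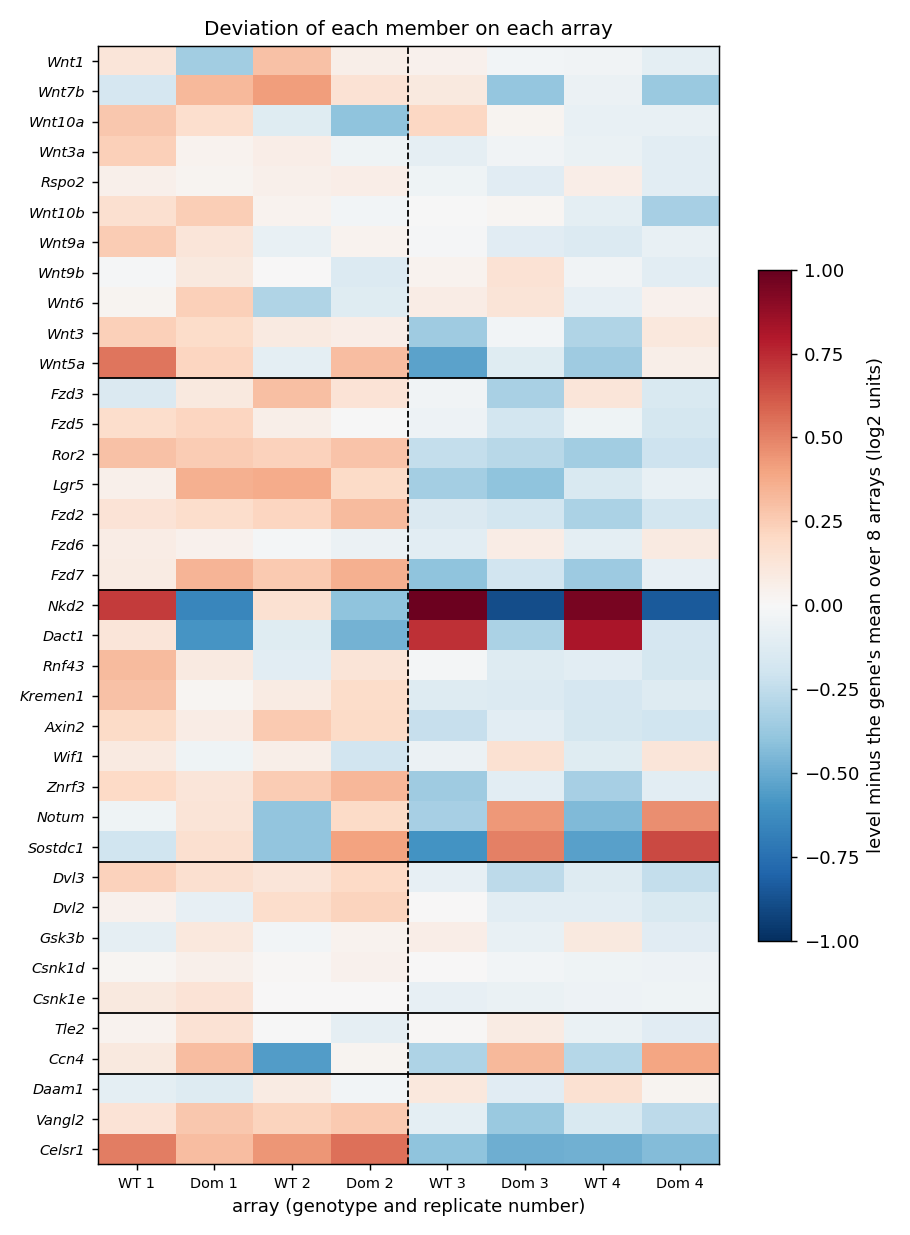
Level of each of the 37 members on each array minus the mean of that gene over 8 arrays (colour, log2 units, limited to ±1); columns are arrays in order of replicate number, rows are genes ordered by role, and the dashed line parts replicates 1 and 2 from 3 and 4. Colours alternate by genotype for Nkd2, Notum and Sostdc1, while Celsr1, Vangl2, Ror2, Fzd2 and Fzd7 change at the dashed line. Dact1 alternates except in wild-type replicate 2, where it stood at 10.56, below its mean of 10.68.

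**Figure D4:**
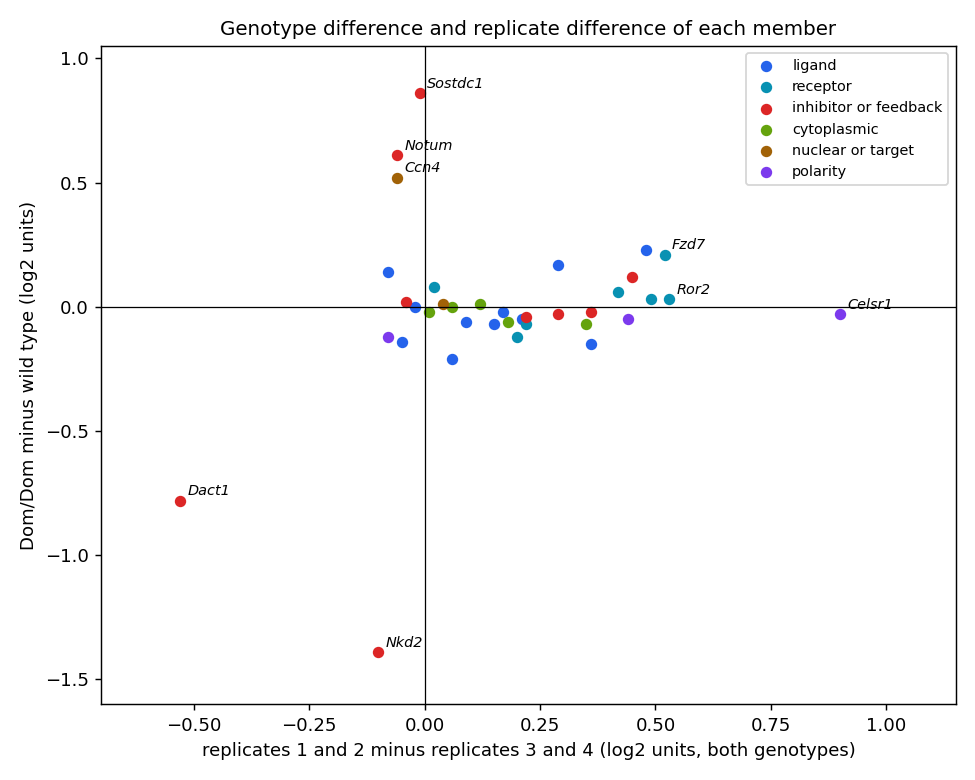
Genotype difference (Dom/Dom minus wild type, y axis) against the difference of replicates 1 and 2 minus replicates 3 and 4 over both genotypes (x axis), both in log2 units, 1 point per member coloured by role. Celsr1 lies far right at 0.90 with a genotype difference of -0.03, whereas Sostdc1 lies at -0.01 on the x axis with a genotype difference of 0.86.

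A second list held 177 further Wnt pathway genes, of which 47 were measured. Without a block 0 passed by limma, 5 of them at an unadjusted p under 0.05 (as were 419 of all 6855 genes tested), and 1 passed with the replicate block, where 1.5% of all genes did. That gene was Serpinf1, for a secreted serpin, at 10.86, 11.28, 11.63 and 11.59 in Dom/Dom replicates 1 to 4 and 11.89, 11.60, 12.32 and 12.38 in wild-type replicates 1 to 4 (difference -0.71, limma adjusted p = 0.279; 0.0353 with the block). Its groups overlapped slightly, and it was lower in 4 of 4 pairs. The groups did not overlap for 3 of the 47, against 3.78% of all genes: Nfatc4, a calcium-responsive factor gene (difference 0.35, 95% interval 0.16 to 0.54), Shisa2, an inhibitor of Frizzled maturation (-0.19, -0.36 to -0.03), and the polarity effector gene Wdpcp (-0.21, -0.40 to -0.02), with adjusted p = 0.165, 0.619 and 0.644. In the other classes the largest differences were those of Rspo3 (0.24), the R-spondin receptor gene Lgr6 (0.10), Apc2 (-0.33, with 0.67 in pair 1 against -0.43, -0.83 and -0.71 in pairs 2 to 4) and the beta-catenin antagonist gene Cby1 (0.33). The list's median difference was 0.02.

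Markers were read beside these values, since fewer cells of a type and less RNA per cell cannot be told apart in such cultures. All 13 measured neural crest markers of 20 listed were above the olfactory receptor reference. So were 4580 of all 6855 genes and 9 of 13 epithelial markers, so this does not by itself bear out the label of the cells. Their mean level was 10.94 to 11.21 on Dom/Dom arrays and 11.42 to 11.67 on wild-type arrays; 7 of 13 were below 0, and Sox10 and Erbb3 passed, joined with the replicate block by Tfap2a and Mef2c (adjusted p = 0.0418 and 0.0221), both lower. By pair the mean difference of the 13 markers was -0.52, -0.22, -0.59 and -0.51, smallest in pair 2, as for Nkd2 and Dact1. Sostdc1, Notum and Ccn4 instead had their smallest difference in pair 1 (0.36, 0.17 and 0.21). The mean of the 13 markers includes Sox10 itself (-1.20) and Erbb3 (-1.57). Also below 0 were Mef2c (-1.01), Ngfr (-0.95), Ednrb (-0.92), Tfap2a (-0.50) and Snai2 (-0.19). The median difference of the list was -0.19. The other 6 of 13, Sox9, Tfap2b, Twist1, Pax3, Msx2 and Nr2f1, were above 0, by 0.02 to 0.10. Of 21 mesoderm markers 9 were measured, at a mean of 8.67 to 8.89 in Dom/Dom and 8.47 to 8.75 in wild type, with 6 of 9 above 0, 0 passing without the block and Prrx1 passing with it (0.44 higher, adjusted p = 0.0339), and Meox1, Meox2, Myf5 and Osr2 not above the reference. Of 23 epithelial markers 13 were measured, at 9.13 to 9.54 and 9.33 to 9.66, with 12 of 13 below 0, 0 passing without the block and Krt8 passing with it (difference -0.50, adjusted p = 0.0164); Krt15, Krt17, Grhl2 and Cldn7 were not above the reference. The neural tube markers Lmx1a and Gdf7, 2 of 19 listed, had a mean of 10.21 to 10.51 in replicates 1 and 2 and 10.05 to 10.10 in replicates 3 and 4, the direction seen for Celsr1. Tail bud markers (2 of 10 measured, Wnt3a and Msgn1) stood at 8.97 to 9.29 in Dom/Dom and 9.08 to 9.57 in wild type. Wnt3a is itself a member and Msgn1 is on the second list, so this reading is not independent of the Wnt genes. Blood and macrophage markers (3 of 10) stood at 9.13 to 9.74 in Dom/Dom and 9.39 to 9.90 in wild type. The endothelial marker Pecam1 (1 of 10), not above the reference, stood at 8.05 to 8.31 and 8.01 to 8.36. The part of these markers in the differences of the Wnt genes was not tested.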

How the data were processed

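Each deposited value is the log2 level of 1 probe set on 1 array. The authors named RMA and Partek, per the submitters' processing notes; their versions are not given in the sources used here. Background correction and between-array scaling are parts of RMA, which compresses dim differences. No detection calls were given, and the number of arrays limits precision. Of 16381 probe sets, which are part of the array, 7416 had 1 gene symbol in the platform annotation, 509 several and 8456 none; the brightest probe set stood for a gene, which left 6855 genes, 97.9% of them on chromosomes 1 and 10 to 16. Symbols were updated by gene identifier from a RefSeq table (GRCm38.p6), which matched 6829.

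Genotypes were compared over 8 arrays with limma 3.58.1 in R 4.3.3 (lmFit, eBayes, two-sided). On simulated data with 100 of 6855 genes changed by 1 log2 unit and 100 by 2, this comparison found 99 and 100, with 7 other calls. The simulated noise was independent between arrays, unlike that of the real arrays, and changes under 1 log2 unit were not simulated. These counts therefore do not give the share of real changes that the comparison would find. Genotypes share replicate numbers: deviations from the genotype mean correlated at 0.47, 0.58, 0.61 and 0.67 between same-numbered arrays, and this, not a label, is why same-numbered arrays were treated as pairs. Between arrays of different number the correlations ran from -0.56 to 0.38. They were also above 0 between replicates 1 and 2 (0.11 and 0.14) and between replicates 3 and 4 (0.38 and 0.21). The pairing was thus chosen from the same data it was used on. Alternatives were the replicate block, a block of replicates 1 and 2 against 3 and 4, each array left out, quantile normalization, median centring, a filter on dim probe sets, the mean of a gene's probe sets, all probe sets, trend and robust eBayes, and array weights.

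The members, lists and tests were chosen with earlier results of these data known. Every member was named; values on all 8 arrays were to be given for those past the threshold with or without the replicate block or without overlap, and array values were added for Axin2, Wnt1, Fzd7 and Celsr1 after they were seen. Other Wnt genes were named if they met the same conditions or had the largest difference of their class.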

Additional observations from a re-analysis of the deposited data

Results flagged for a closer look

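Within each genotype, 1 array standing far from the other 3 was looked for among 46 named genes, the means of 7 marker lists and 6 member classes, and the array medians. Of 120 sets 2 held such a value, where about 1 in 20 is expected by chance. The mean of the inhibitor or feedback members was high in wild-type replicate 1 (9.94, against 9.73 to 9.75 in the other wild-type arrays). The mean of the tail bud markers, Wnt3a and Msgn1, was high in the same array (9.57, against 9.08 to 9.13).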

How the results depend on the processing

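The count of members past the threshold was 2, and it was 4 with the replicate block, 4 with the block of replicates 1 and 2 against 3 and 4, 5 with array weights, 0 over all probe sets and 1 to 4 when 1 array was left out. Over all genes the count of 33 became 103 and 116 with these 2 blocks in turn and 190 with array weights. Of all 16381 probe sets, with or without a gene symbol, 4 passed. The count over all genes was 10 to 51 when 1 array was left out. It was 11 without Dom/Dom replicate 3, 12 without Dom/Dom replicate 4 and 10 without either wild-type replicate 3 or wild-type replicate 4. Without wild-type replicate 2 it was 51. Among the other Wnt pathway genes the count of 0 became 1 with either block, 2 with array weights and 0 in each fit without 1 array. Across 17 alternatives the difference of Nkd2 ran from -1.62 to -1.30 and that of Sostdc1 from 0.79 to 1.01. Sostdc1 passed in 4 of 8 fits without 1 array, Notum in 2, Dact1 in 1 and Ccn4 in 1. Notum also passed with the filter on dim probe sets (adjusted p = 0.0490) and with trend and robust eBayes (0.0475). Among the 46 named genes, 0 had a called difference whose sign was turned by an alternative, and the replicate block changed no call other than those of Dact1, Ccn4 and Serpinf1. Quantile normalization and median centring moved the median of all genes by no more than 0.04. Cause was not tested for these shifts, though adjusting over all probe sets tests more features. With no detection calls, how far a probe set stood over background was judged by the olfactory receptor genes alone.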
